A study of Mus musculus with 2 samples.

Results

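Peaks near 7 genes that govern how retinal neurons receive trophic signals and whether they extend axons were examined in Rac1 CUT&Tag profiles of mouse retina. The genes were Bdnf, Ntrk2, Igf1r, Rtn4, Tsc1, Klf7 and Ppp3ca. They were chosen from the deposited peak lists as axon growth genes that carried a peak in at least 1 of 2 libraries, so the presence of a peak at each of them is not a result. Every peak whose annotated gene was one of the 7 was taken, 5 of 3078 in the control list and 6 of 1711 in the list from retina after 1 week of chronic ocular hypertension (COH), 11 of 4789 in all.

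The assay, CUT&Tag, uses an antibody to tether a transposase to chromatin in nuclei, so that adapters are inserted beside the bound protein. The antibody was against Rac1, a small GTPase of the actin cytoskeleton, and the series set out to find genes and transcription factors related to Rac1. Both libraries came from retinas of wild type C57BL/6 mice 7 weeks old. The control retina had no treatment, and the other came from mice with COH, which models glaucoma: high pressure in the eye harms retinal ganglion cell axons. How the pressure was raised, or how many retinas entered each library, is not given in the sources used here. With 1 library per group there was no replicate spread, so no difference between the conditions could be tested. A library made with a control antibody was not analysed here, and the number of reads is unknown.

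Peak lists do not measure expression, and the labelled tissue could not be checked through them. Of 31 markers of rods, ganglion cells, microglia, vessels and pigment epithelium, the control list named 4 (12.9%, exact 95% interval 3.63 to 29.8) and the COH list 0 (0 to 11.2%). Of all 21900 protein-coding genes, the lists named 10.8% and 5.38%. Both shares lie inside these intervals, so nothing about the tissue is read from the marker counts.

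Brain-derived neurotrophic factor, the product of Bdnf, is a secreted ligand that keeps retinal ganglion cells alive, and its receptor is the tyrosine kinase TrkB, encoded by Ntrk2. Igf1r encodes a second growth factor receptor, which acts through PI3 kinase and Akt on the growth-promoting kinase mTOR, and Tsc1 encodes a subunit of the complex that holds mTOR back. Rtn4 encodes Nogo, a membrane protein of oligodendrocyte myelin and neurons that blocks axon extension. Klf7 encodes a zinc finger transcription factor that favours axon growth, and Ppp3ca a catalytic subunit of calcineurin, the calcium-dependent phosphatase that activates NFAT factors.

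RefSeq promoter windows of Rtn4 and Tsc1, the genes with the strongest promoter peaks of the group by fold, are shown first. Both genes carried promoter peaks in control and none in COH. The third sequence belongs to an internal start of Bdnf, shown because a COH peak was annotated inside that gene. RefSeq promoter windows (build GRCm38.p6) were matched by symbol for 6 of the 7 genes, with 7 windows for Bdnf and 3 for Rtn4. Each run gives the 250 bases before a start, 5′ to 3′ on the plus strand, which is the strand of all 3 genes. The capitals mark a GC box (GGGCGG) or CCAAT, on either strand.
Rtn4, chr11:29692648-29692897: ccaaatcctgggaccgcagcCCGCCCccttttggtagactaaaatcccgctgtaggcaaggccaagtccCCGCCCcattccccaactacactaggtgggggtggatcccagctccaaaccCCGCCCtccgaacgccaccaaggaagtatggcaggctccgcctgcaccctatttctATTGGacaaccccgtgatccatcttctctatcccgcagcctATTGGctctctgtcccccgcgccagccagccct
Tsc1, chr2:28640983-28641232: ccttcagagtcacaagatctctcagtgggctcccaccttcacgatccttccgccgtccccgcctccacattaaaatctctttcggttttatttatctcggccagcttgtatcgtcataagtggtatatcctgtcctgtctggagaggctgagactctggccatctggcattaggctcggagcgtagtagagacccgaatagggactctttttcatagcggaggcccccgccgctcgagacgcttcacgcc
Bdnf, start 19709 bp after the first, chr2:109694159-109694408: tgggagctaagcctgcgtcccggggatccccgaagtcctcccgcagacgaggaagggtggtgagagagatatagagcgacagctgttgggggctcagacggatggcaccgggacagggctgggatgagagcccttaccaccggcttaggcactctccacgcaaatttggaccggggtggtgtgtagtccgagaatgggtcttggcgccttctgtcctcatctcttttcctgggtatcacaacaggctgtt
These positions are in GRCm38.p6 and are not those of the peaks below, whose build is unsettled. Whether the RefSeq starts are the starts used for the peaks was not checked by alignment. The Tsc1 start shown lay 240 bp inside the RefSeq gene, so most of the bases printed for it follow the 5′ end of that gene. The Klf7 start lay 956 bp inside and the window of Igf1r began closer to the start than the Igf1r peaks, so neither is shown.

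The Rtn4 window shown held 3 GC boxes, beginning 230, 181 and 130 bases before the start. It also held 2 CCAAT motifs, beginning 74 and 33 bases before the start, with no base shared between motifs. GC boxes occurred in 32.7% of the 32851 RefSeq windows of the same length and CCAAT in 33.8%. The Tsc1 window and the Bdnf window shown held none of the 6 motifs searched on both strands, which were these 2, CACGTG (E-box, in 6.02% of all windows), TGACGTCA (cAMP response element, 1.55%), GCGCATGC (the core of the NRF1 motif, 2.26%) and CCGGAAGT (ETS, 2.88%). The base composition was 61.2% G and C with 12 CpG dinucleotides for Rtn4, 54.4% with 16 for Tsc1 and 59.6% with 13 for the Bdnf window. The median of all windows was 52.4% and 6. A match, or none, in these letters describes the sequence and not a bound factor.

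Of the 7 genes, the control list named 5, the COH list 5 and both lists 3. The same shares were 10.8%, 5.38% and 3.53% for the 21900 protein-coding genes; the genes were picked for having peaks, so nothing is read from this difference. Bdnf, Igf1r and Ppp3ca were in both lists, Rtn4 and Tsc1 in control, and Klf7 and Ntrk2 in COH. By the annotation class in the lists, 4 of the 5 control peaks and 3 of the 6 COH peaks were promoter peaks, where the promoter class made up 46.9% of the control list and 40.6% of the COH list. The others were a distal intergenic peak in control, and in COH 2 distal intergenic peaks and a 5' UTR peak. No peak was annotated to an intron of a member.

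The peaks were of ordinary strength in both lists. The authors' pileup, the height of stacked fragments at a peak, ran from 14 to 24 over the 5 control peaks and from 11 to 20 over the 6 COH peaks. The list medians were 17 and 16. The authors' fold enrichment, a ratio of the signal to a background that is not described, ran from 4.02 to 7.04 in control, around a list median of 5.24, and from 4.61 to 6.85 in COH, around 5.45. The scaling of pileup between the libraries is not stated. Values of the 2 lists therefore stand side by side below without a measured change.

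**Figure D1:**
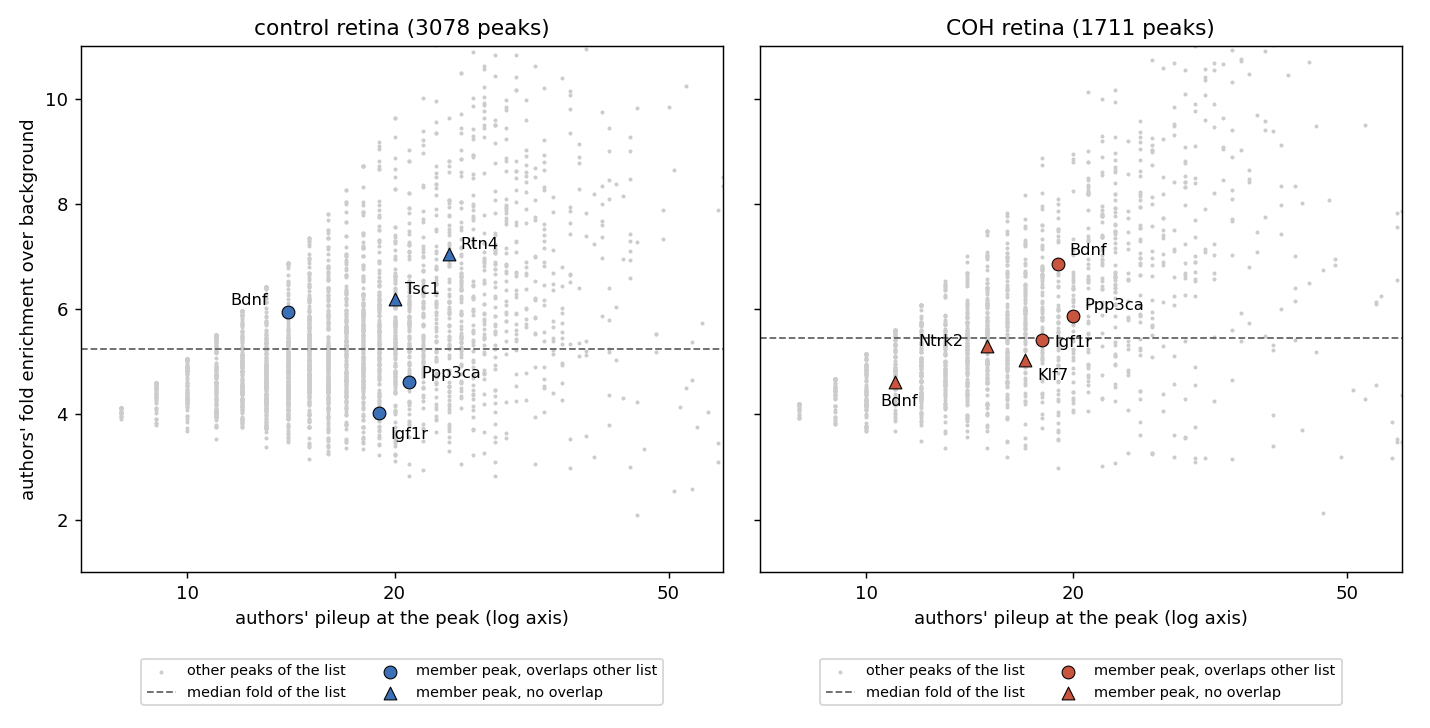
Authors' pileup (x axis, log scale) against the authors' fold enrichment (y axis, ratio) for every peak of the control list (left) and the COH list (right), with the peaks of the 7 genes in colour, circles where they overlap a peak of the other list and triangles where they do not. Rtn4 (7.04), Tsc1 (6.19) and Bdnf (5.94) lie above the dashed list median in control, and Bdnf (6.85) and Ppp3ca (5.87) in COH; 172 control and 143 COH peaks lie beyond the axes.

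The neurotrophin gene Bdnf carried the only distal peaks of the group that were found in both retinas. In control the peak (gene ENSMUSG00000048482) spanned positions 109465873 to 109466172 of chromosome 2, as numbered in the deposited lists, 38873 bp upstream of the annotated transcription start site (TSS). Its pileup was 14, its fold 5.94 and its -log10 q 6.12. In COH the peak lay at 109465829 to 109466210, where pileup was 19, fold 6.85 and -log10 q 9.24. The control peak lay wholly inside the COH peak, over 300 bp, which is 78.5% of the COH peak. The summits were 192 bp apart, where the 1060 overlapping pairs of the lists had a median of 71 bp and an upper quartile of 162. The site ranked 949 of 3078 by fold in control and 397 of 1711 in COH, and ranks in lists of unequal length show no change. It was short in control, with a listed length of 301 bp that only 2.27% of control peaks were below.

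Among distal intergenic peaks, 45.7% of those in control and 57.5% of those in COH overlapped the other list. The median distance from a TSS was 38580 bp in control and 38539 bp in COH, close to that of the Bdnf site.

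A second Bdnf peak was listed in COH, inside the gene. It lay at 109523956 to 109524579, from 18911 to 19534 bp after the annotated TSS, and was classed as 5' UTR. Bdnf is transcribed from several promoters, each with its own leader exon. The class does not tell which transcript this 5' UTR belongs to, or where that transcript starts. The peak had the lowest pileup and -log10 q of the 11, at 11 and 3.17, and a fold of 4.61. It was long, at 625 bp, against a list median of 401 bp. No control peak lay within 57784 bp of it, and the nearest was the distal Bdnf peak. Of the 198 COH peaks in 5' UTRs, 27 lay over 10000 bp from the TSS of their gene. Of all 198, 59.6% had a control partner. The COH list was also divided into 5 equal bins by fold. In the bin of this peak, 37 of 132 peaks farther than 1000 bp from a TSS (28.0%, 20.6 to 36.5) had a control partner. Of the peaks of that bin within 1000 bp of a TSS, 127 of 210 (60.5%) had one.

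In RefSeq the 7 Bdnf starts lay at 0, 2332, 17736, 18327, 19709, 34683 and 48221 bp from the first. As numbers, the limits of the COH peak fall between the starts at 18327 and 19709 bp, and the sequence before the latter is printed above. The distances come from different builds and annotations and were not aligned, so the peak is not assigned to a start.

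The receptor genes Ntrk2 and Igf1r had peaks of different kinds. Ntrk2, on chromosome 13, had 1 peak, in COH, at 59286961 to 59287559, where pileup was 15, fold 5.30 and -log10 q 5.27. It lay 332578 bp from the TSS but only 5177 bp beyond the far end of this long gene (327402 bp, ENSMUSG00000055254), in intergenic sequence. Of the COH distal peaks 5.69% lay more than 300 kb from a TSS. In the bin of the Ntrk2 peak by fold, 54 of 141 COH peaks farther than 1000 bp from a TSS (38.3%, 30.2 to 46.9) had a control partner. The nearest control peak was 375703 bp away, in an intron and assigned to Agtpbp1, and no peak of either list lay in the Ntrk2 gene or its promoter. The TrkB promoter is thus without a listed peak in both retinas, and a site that missed the threshold of the peak caller cannot be told apart from an unbound one.

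**Figure D2:**
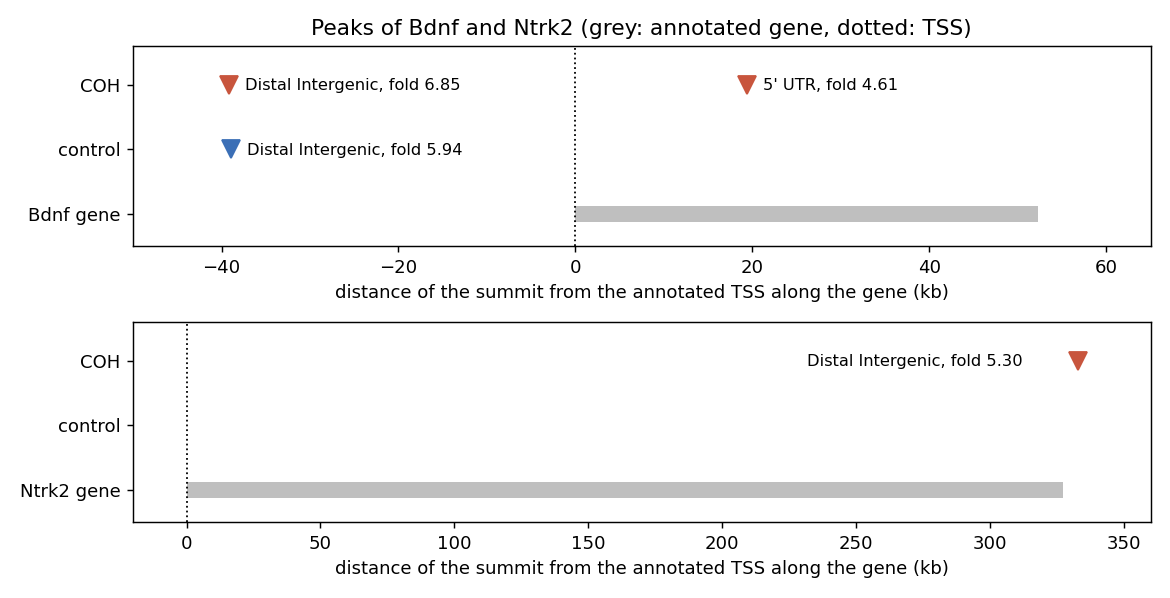
Summits of the peaks of Bdnf (top) and Ntrk2 (bottom) by distance from the annotated TSS along the gene (x axis, kb), with control and COH on separate lines and the gene as a grey bar. The distal Bdnf site appears in both lists (fold 5.94 and 6.85), while the inner Bdnf peak (4.61) and the Ntrk2 peak past the end of the gene (5.30) are on the COH line.

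Igf1r, on chromosome 7, had overlapping peaks upstream of its start in both retinas. The control peak lay at 67601185 to 67601487, 1088 bp before the TSS (ENSMUSG00000005533), where pileup was 19 and fold 4.02. Its -log10 q of 4.39 was the lowest of the control peaks of the group. The COH peak lay at 67601028 to 67601376, 1199 bp before the TSS, where pileup was 18, fold 5.42 and -log10 q 6.44. They shared 192 bp, 63.4% of the control and 55.0% of the COH peak, and their summits were 278 bp apart, farther than in 88.9% of all overlapping pairs. By fold the control peak was among the weakest of its list, with 8.97% of peaks below it, and the COH peak stood near the middle, with 49.1% below. Promoter peaks at this range are rare: 22 control and 16 COH peaks were classed as 1 to 2 kb from a TSS. The site left the TSS of Igf1r itself without a peak in either list.

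Rtn4, the Nogo gene, had the strongest control peak of the group, and it was centred on the start. The peak lay at 29642766 to 29643197 on chromosome 11 (ENSMUSG00000020458), from 181 bp before to 250 bp after the TSS, with the summit 4 bp after it. The median distance between summit and TSS was 155 bp over the 1413 control promoter peaks within 1 kb. The pileup was 24, the fold 7.04 and the -log10 q 11.8, rank 485 of 3078 by fold. The nearest COH peak was 144404 bp away, at the promoter of Clhc1. When the control list was divided into 5 equal bins by fold, the top bin had 261 peaks no more than 1000 bp from a TSS, of which 146 (55.9%, 49.7 to 62.1) shared bases with COH peaks. A peak of this strength without a partner was therefore common.

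Tsc1, the mTOR brake, had the next strongest control peak. It lay at 28530962 to 28531400 on chromosome 2 (ENSMUSG00000026812), from 278 bp before to 160 bp after the TSS, with the summit 185 bp before it. The pileup was 20, the fold 6.19 and the -log10 q 8.64, rank 805 of 3078. The nearest COH peak lay 198986 bp away, at the promoter of Ddx31. In its bin by fold, 163 of 443 control peaks near a TSS (36.8%, 32.3 to 41.5) had a COH partner. Rtn4 and Tsc1 were thus the strongest of the 5 control peaks by fold, and both had no COH partner. The 3 control peaks with a partner had lower folds, 4.02 to 5.94, which runs against the trend of the whole list, where the overlapping share rose with fold. With 5 peaks this is a description of these sites.

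Klf7, the growth-favouring factor, had 1 peak, in COH, at its start. It lay at 64160988 to 64161441 on chromosome 1 (ENSMUSG00000025959), entirely on the transcribed side, from the TSS to 453 bp after it, with the summit 189 bp after it. Its pileup was 17, its fold 5.03 and its -log10 q 5.46. Of the 672 COH promoter peaks within 1 kb of a TSS, 39.4% had the summit on that side. The nearest control peak was 262288 bp away and was assigned to Gm13751. COH promoter peaks more often had a control partner than not (70.7%), and in the bin of Klf7 127 of 210 peaks near a TSS (60.5%, 53.5 to 67.1) had one.

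Ppp3ca, the calcineurin gene, was the member with promoter peaks over the TSS in both retinas. In control the peak lay at 136375485 to 136376027 on chromosome 3 (ENSMUSG00000028161), from 400 bp before to 142 bp after the TSS, where pileup was 21, fold 4.62 and -log10 q 6.09. In COH it lay at 136375530 to 136376434, from 355 bp before to 549 bp after, where pileup was 20, fold 5.87 and -log10 q 7.94. Both peaks began within 45 bp of each other, and the COH peak reached 407 bp farther into the gene. Its listed length of 906 bp, against 544 bp in control, exceeded that of 96.8% of COH peaks. The summits were 56 bp apart, 165 bp before the TSS in control and 109 bp before it in COH. The shared 498 bp were 91.7% of the control peak. In control, 92 of 398 peaks of its bin near a TSS (23.1%, 19.1 to 27.6) had a COH partner, and in COH 170 of 203 (83.7%, 77.9 to 88.5) had a control partner.

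**Figure D3:**
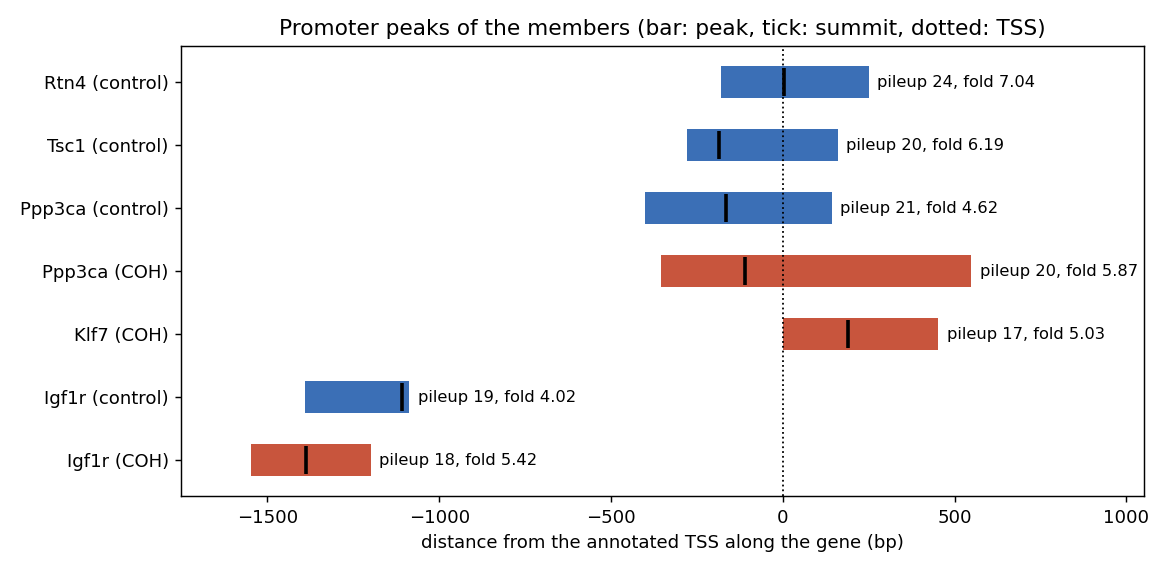
Extent of each promoter peak (bars, blue for control and red for COH) and its summit (black tick) by distance from the annotated TSS along the gene (x axis, bp). Peaks of Rtn4, Tsc1 and Ppp3ca span the TSS, that of Klf7 extends from the TSS to 453 bp after it, and those of Igf1r lie 1088 to 1547 bp before it.

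Over all 11 peaks, 3 of the 5 control peaks and 3 of the 6 COH peaks overlapped the other list, against 34.3% of all control peaks and 61.8% of all COH peaks. These overlaps were known when the genes were chosen. Sites were either shared at the same place, by at least 55.0% of either peak, or far apart, by at least 57784 bp. No peak of another gene lay within 100 kb of a member peak or inside a member gene in either list. The share of all peaks without such a neighbour was not computed, so nothing particular to these sites is read from this. In the control list, the peak nearest to that of Bdnf was assigned to Gm13925 and lay 107179 bp away.

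**Figure D4:**
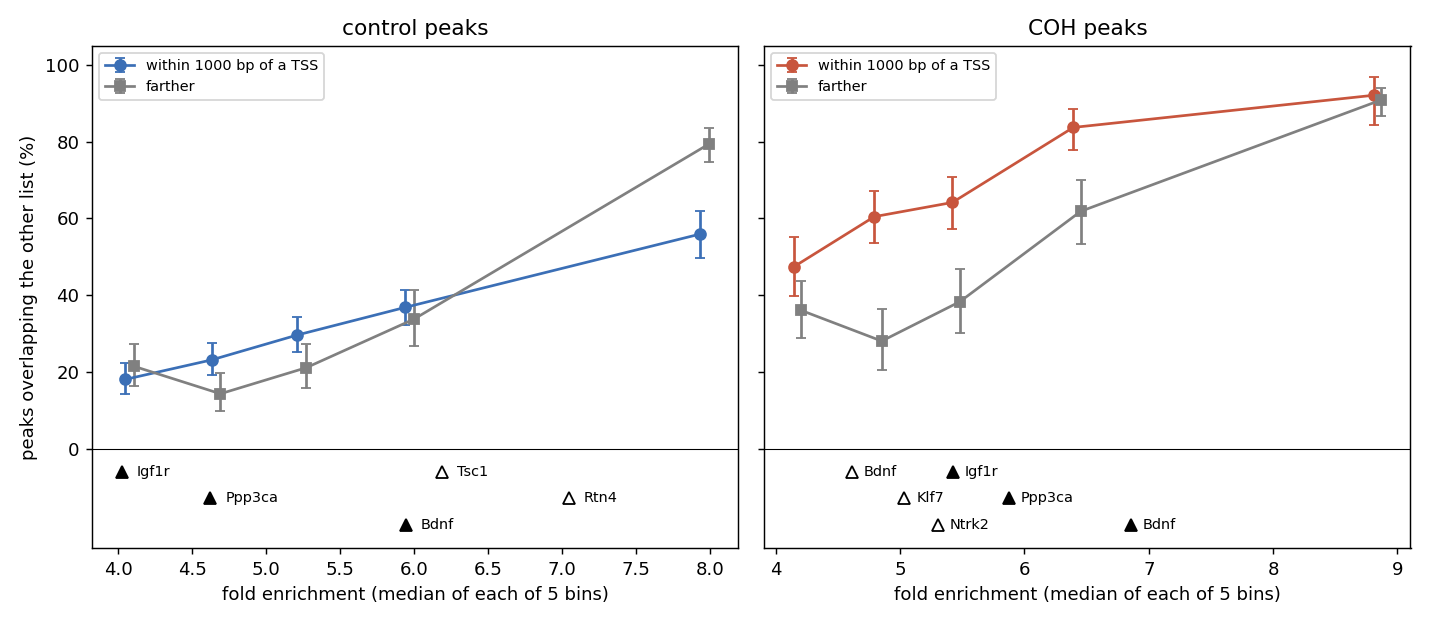
Share of peaks that overlap the other list (y axis, percent, with exact 95% binomial intervals) by fold enrichment in 5 bins (x axis, at each bin's median) for control (left) and COH (right) peaks within 1000 bp of a TSS (circles) or farther (squares). Triangles under the zero line mark the folds of the 7 genes' peaks, filled where the peak overlaps the other list; in control the open triangles of Tsc1 (6.19) and Rtn4 (7.04) are at the strong end, and in COH the open ones, up to Ntrk2 (5.30), are at the weak end.

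In COH the order was the other way round. The 3 COH peaks with a control partner had folds of 5.42 to 6.85, and the 3 without, of Bdnf in its 5' UTR, Klf7 and Ntrk2, had 4.61 to 5.30, the direction seen across the list.

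Other genes of the same pathways were counted in 8 lists of 223 genes, written with earlier results of these data known. Apart from the 7, the control list named 44 of 216 genes (20.4%, 15.2 to 26.4), the COH list 26 of them (12.04%, 8.02 to 17.1) and both lists 19, beside 10.8%, 5.38% and 3.53% of all protein-coding genes. Of the 19, 17 had overlapping peaks, and this share was not computed over all genes named in both lists. Of the peaks of the 216 genes, 17 of 45 in control and 17 of 26 in COH overlapped the other list. The shares over all peaks were 34.3% and 61.8%. The 45 control peaks had a median fold of 5.03 and the 26 COH peaks one of 4.93, below the list medians of 5.24 and 5.45. Of these peaks 35 and 20 lay within 1000 bp of a TSS, where 61.6% of all control and 51.1% of all COH peaks lay. Because the genes were listed with earlier results known, nothing is read from the distance of these shares to those of all protein-coding genes. Genes also differ in length and in the number of starts, and the part of these in the shares was not tested.

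The counts of single lists below include the members. Of 13 neurotrophins, receptors and sorting receptors, 2 were named in control and 3 in COH. Besides Bdnf and Ntrk2 these were Ntf3, which encodes neurotrophin-3, through a control peak in an intron of Ano2 at 141639 bp from its TSS (fold 7.08), and Sorcs3, a sorting receptor, through a COH peak in its first intron (5.25). Ntrk3 and Ngfr had none. The adaptors and effectors below the Trk receptors had 9 of 40 genes in control and 3 in COH. The 3 were in both lists: Creb1, the transcription factor that neurotrophins activate, at its promoter (fold 5.40 in control, 5.04 in COH), Rapgef1 in its first intron (5.17 and 4.28) and Rps6ka1, a kinase of the ERK pathway, at a distal site (8.74 and 6.64). Gab1 (4.96), Rap1b (4.84), Camk2d (4.61) and Grb2 (4.37) led those with control peaks alone.

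Insulin-like growth factor signalling had 6 of 32 genes in control and 5 in COH. Akt2, which encodes a kinase that the receptor activates through PI3 kinase, had overlapping promoter peaks (fold 7.67 in control, 7.03 in COH). Promoter peaks of Pik3r3 (7.80) and Pik3ca (4.70), subunits of PI3 kinase, were in control, and that of the receptor substrate Irs2 (4.62) in COH.

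The list around mTOR had 11 of 43 genes (25.6%, 13.5 to 41.2) in control and 3 (6.98%, 1.46 to 19.1) in COH. The 3 were also in control: Akt1s1, an inhibitory mTOR partner (fold 3.66 in control, 4.28 in COH), Ddit4, a stress-induced mTOR repressor (3.68 and 5.90), and Sesn3 (5.90 and 5.02). Tsc1 was 1 of 8 genes with control peaks alone, as were the kinase gene Mtor (5.57), Flcn (6.30) and the GTPase gene Rragc (6.02). Its partner Tsc2 had no peak in either list. The intervals of the 2 libraries count the same 43 genes, so their overlap does not compare the conditions. The whole COH list was also shorter.

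Around Nogo, 3 of 22 genes had a control peak, Rtn4, Rhoa (5.69) and Rock2 (5.03), and 1 a COH peak, Rock1 (4.63). Rhoa and the Rock kinases carry the inhibitory signal to actin, and their peaks were at promoters. The Nogo receptor gene Rtn4r, its partner Lingo1 and the other myelin inhibitors Mag and Omg had none.

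Of 17 Krüppel-like factors, 5 (29.4%, 10.3 to 56.0) were named in control and 6 (35.3%, 14.2 to 61.7) in COH. Klf13 had overlapping promoter peaks (fold 3.23 and 3.48) and Klf12 overlapping distal ones (8.59 and 6.78). Without Klf7, 5 of 16 were named in each list. Klf7 shared the state of a COH promoter peak without a control peak with Klf3 (5.17), Klf10 (4.58) and Klf16 (4.30). Klf4, a repressor of axon growth, had a distal control peak (6.06), and Klf2 a control promoter peak (5.47).

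Calcineurin and its regulators had 6 of 21 genes in control and 5 in COH. Besides Ppp3ca, those in both included Ppp3r1, a regulatory subunit of calcineurin (fold 3.91 in control, 4.61 in COH). The calmodulin genes Calm2 (4.51 and 5.22) and Calm3 (4.25 and 4.84) were also in both. Each of these genes had overlapping promoter peaks. Ppp3cc, which encodes another catalytic subunit, had a control promoter peak (6.32). None of Nfatc1 to Nfatc4, its targets, had a peak.

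Other intrinsic regulators of axon growth had 7 of 35 genes in control and 5 in COH. Stat3, a cytokine-activated factor (fold 5.38 and 5.93), the kinase gene Gsk3b (5.95 and 4.72) and the phosphatase gene Phlpp1 (4.996 and 6.07) had overlapping promoter peaks, and the distal peaks of Ret (7.65 and 4.64) did not overlap. Il6st (4.95), Set (4.87) and Lifr (4.43) had control peaks, and a COH peak 294514 bp from its TSS was assigned to Spry2 (4.21).

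**Figure D5:**
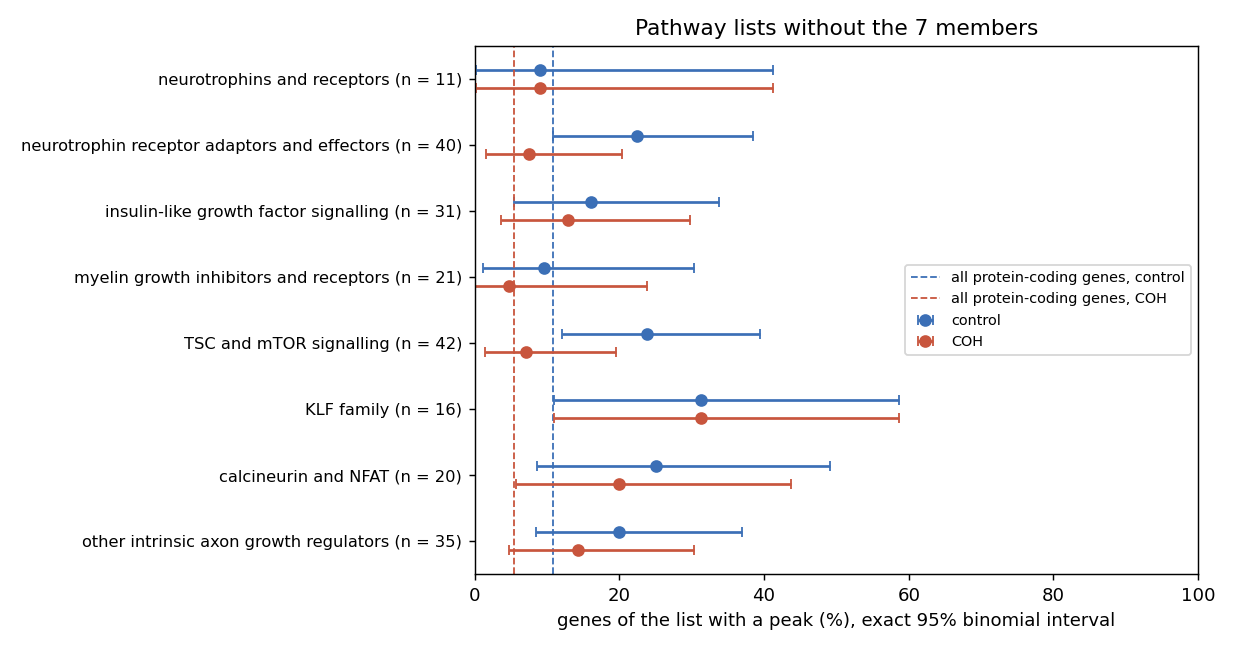
Share of each pathway list's genes, the 7 members left out, that were the annotated gene of a peak (x axis, percent, with exact 95% binomial intervals), in control (blue) and COH (red), with dashed lines at the shares of all protein-coding genes, 10.8% and 5.38%. Among these lists the KLF family has the highest share in both libraries, 5 of 16 in each. The lists were written with earlier results known, so nothing is read from their distance to the dashed lines. The intervals of control and COH overlap in every list, but they count the same genes, so this does not compare the conditions.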

How the data were processed

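Nuclei were isolated from retinas, and libraries were made with a Rac1 antibody and 15 PCR cycles, per the labels. The submitters' processing notes name cutadapt 1.9.1, Bowtie2 and the build mm9, without their roles; which peak caller was used, and how duplicates were treated, is not given in the sources used here. Peaks were taken as called per library, 1 list for each. The signal (pileup), the fold (a ratio over background), the -log10 p and -log10 q values, and the positions, annotation classes, genes and distances (other values) were deposited by the authors. The 2 columns of -log10 p and q had damaged headings and were read from their place and values; they were used to describe or filter peaks. Scaling is not stated and depth is unknown. Of 3175 genes, 93 started within 100 bp of their RefSeq position in GRCm38.p6, so the build is unsettled.

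The members and lists were chosen with earlier results of these data known. All peaks of the 7 genes are described; of each list, genes with peaks in both libraries and up to 4 others of highest fold are named, as are further genes chosen after their values were seen (those without a peak, and further members that complete a count). Some genes of the lists are not reported here. Peaks overlapped if they shared at least 1 bp. The 95% intervals of shares are Clopper-Pearson (exact). They cover counting error only, taking peaks or genes as independent, and hold no spread between libraries. PCR copies were not told apart by molecular identifiers. No test between conditions was made, with 1 library per group. The overlap step was tested on simulated data. Motifs were searched in the 250 bases before each RefSeq start. Python 3.11.15, pandas 2.3.3 and scipy 1.17.1 were used.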

Additional observations from a re-analysis of the deposited data

How the results depend on the processing

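Of 27 recounts under other settings, 18 stayed within 1.5 times the reported count and 9 did not. Among peaks above the median fold of their list, 3 genes had a control peak, 2 a COH peak and 1, Bdnf, both. With equal numbers of the strongest peaks, 3 had a control peak and 1, Bdnf, both. Within 1000 bp of the TSS the counts were 3, 2 and 1, the last being Ppp3ca, and within 10000 bp 3 had a COH peak. Each of these settings keeps fewer peaks by construction. With a -log10 q of at least 5, Igf1r left the control list and 2 genes were in both. Overlap counts of 3 and 3 held under a reciprocal overlap of 50% and with peaks within 1000 bp of each other counted as shared. No paired analysis was possible because each group has 1 library. No sample could be left out for the same reason. The lists hold only peaks past a threshold, at unknown depth, so absence from a list is no evidence of absent binding.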
